A study of Mus musculus with 8 samples.

Results

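The 10 miRNAs described here are often used as normalizers of small RNA measurements and were followed through the 8 miRNA-seq libraries of the study: mmu-miR-103-3p, mmu-miR-107-3p, mmu-miR-191-5p, mmu-miR-191-3p, mmu-miR-425-5p, mmu-miR-425-3p, mmu-miR-423-3p, mmu-miR-423-5p, mmu-miR-361-5p and mmu-miR-186-5p, written without the species prefix from here on. They were taken by name from a list, and all 10 were among the 697 miRNAs counted. The libraries came from isolated cardiomyocytes of male mice that underwent surgery at 2 months of age, 4 after transverse aortic constriction (TAC), which narrows the aorta and loads the left ventricle with pressure, and 4 after a sham operation. The cells were isolated by Langendorff perfusion, and the methods give 14 weeks both as the time after surgery and as the age of the mice at that step, so which of them holds was not settled. Each library held part of the cells of 1 heart. The labels and the methods name no genetic alteration or drug for either group beyond the surgery and its anaesthesia, and the strain was not given in the sources used here. The libraries are called Sham1 to Sham4 and TAC1 to TAC4 after their labels. The miRNA totals ranged from 4005668 to 5392576 counts in sham and from 5507169 to 7798943 in TAC.

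A count of reads is only relative, because the reads of a library are shared out among all its RNAs. To compare groups, counts are therefore divided by the library total or by the level of a reference RNA that is taken to be the same in all samples. Housekeeping-like miRNAs that are made in many cell types have served as such references in QPCR and sequencing, and any change of the reference is carried, with the opposite sign, into every miRNA scaled to it. The study scaled its miRNA-seq to miR-126a-3p, an endothelial miRNA, and miR-19b-3p, a member of the miR-17-92 cluster, and its methods took both as unaltered on the basis of QPCR, which was not analysed here. Here each of the 10 candidates was set against that pair, first for its own level by library total and then as the reference.

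The mature sequences show which candidates are related, and they are given from RefSeq (GRCm38.p6) with the seed, bases 2 to 8, in capitals. The seed is the stretch that pairs with a target mRNA.
miR-103-3p: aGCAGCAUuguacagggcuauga
miR-107-3p: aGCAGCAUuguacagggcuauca
miR-191-5p: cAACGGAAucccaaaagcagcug
miR-191-3p: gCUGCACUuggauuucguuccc
miR-425-5p: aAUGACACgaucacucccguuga
miR-425-3p: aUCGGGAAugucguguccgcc
miR-423-3p: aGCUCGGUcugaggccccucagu
miR-423-5p: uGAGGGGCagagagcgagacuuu
miR-361-5p: uUAUCAGAaucuccagggguac
miR-186-5p: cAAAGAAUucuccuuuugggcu
miR-126a-3p: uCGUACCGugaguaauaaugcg
miR-19b-3p: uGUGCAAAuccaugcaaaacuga

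Only miR-103-3p and miR-107-3p share a seed among the 10. They differ at a single base of 23, G22C, counted from the 5′ end with the miR-103-3p base first. How tags that fit both were assigned is not given in the sources used here, so the split of counts between them is uncertain. Of the 593 miRNAs in the files that were matched to RefSeq, no other carried a seed of a candidate.

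The candidates lie in few loci of GRCm38. miR-103-3p is made from 2 hairpins, at chr11:35782396-35782481 in an intron of Pank3 and at chr2:131288052-131288137 in an intron of Pank2. The hairpin of miR-107-3p lies at chr19:34820687-34820773 in an intron of Pank1, so that all 3 are within genes of pantothenate kinases, the enzymes that start coenzyme A synthesis. The hairpins of miR-191 (chr9:108568319-108568392) and miR-425 (chr9:108568777-108568861) are separated by 384 bases and overlap an exon of the lincRNA 4833445I07Rik. The miR-423 hairpin, which gives both miR-423-3p and miR-423-5p, lies at chr11:77078064-77078172 in an intron of Nsrp1, a splicing regulator. The miR-361 hairpin lies at chrX:113074824-113074893 in an intron of Chm, and that of miR-186 at chr3:157544279-157544349 in an intron of Zranb2. The 10 candidates are therefore not 10 independent loci, and each pair of arms shares its precursor.

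The candidates covered a wide range of abundance. miR-191-5p was counted most, with a mean of 48189 counts per library and rank 24 of all miRNAs, and it alone made up 0.806% to 1.06% of the counts in sham and 0.744% to 0.855% in TAC. Together the 10 held 1.11% to 1.38% of the counts in sham and 0.980% to 1.09% in TAC. miR-191-3p was the least counted, with a mean of 89.6 counts. It was the only candidate below the minimum mean of 100 counts that a miRNA had to exceed to be tested, which 223 miRNAs and 9 of the 10 candidates did. For miR-191-3p the counting error alone was 0.15 on the log2 scale, against 0.0066 for miR-191-5p.

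The Sham1 library stood apart from the other sham libraries. Of the 223 tested miRNAs, 151 had their highest or lowest sham value in Sham1, outside the range of the other 3, against 92 to 103 for each of the others. In the TAC group these counts were 132 for TAC1, 144 for TAC4, and 81 and 89 for the other two. Values without one of them are given where a result turned on it. No library was a copy of another. Markers of the other cell types were present: the endothelial list, which held only the arms miR-126a-3p and miR-126a-5p of 1 hairpin, summed to 49248 to 72051 CPM (counts scaled to a common miRNA total per library) in sham and 29274 to 34557 CPM in TAC, without overlap, while the 5 cardiomyocyte markers summed to 160712 to 198133 CPM and 194455 to 245941 CPM and overlapped. In such bulk samples, fewer cells of a type and less RNA per cell cannot be told apart.

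miR-361-5p and miR-191-5p had the smallest spread over the 8 libraries among the candidates. The CPM of miR-361-5p by library total were 385.7, 402.6, 334.4 and 358.0 in Sham1 to Sham4 and 336.1, 343.4, 363.7 and 350.8 in TAC1 to TAC4. The means were 370 ± 30.1 (SD, n = 4) and 348.5 ± 11.8 (SD, n = 4), and every TAC value lay within the sham range. The log2 fold change of TAC over sham was -0.087 (standard error 0.12, edgeR quasi-likelihood test adjusted by Benjamini-Hochberg, adjusted p = 0.593).

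The CPM of miR-191-5p were 10637, 8718, 8060 and 8843 in sham and 7641, 7440, 8274 and 8546 in TAC. The highest value was that of Sham1, and the groups overlapped, with means of 9064 ± 1103 (SD, n = 4) and 7975 ± 521 (SD, n = 4). The log2 fold change was -0.18 (standard error 0.11, edgeR adjusted p = 0.242). Without Sham1 it was -0.099 (edgeR adjusted p = 0.437).

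Its partner arm miR-191-3p stood at 17.3, 13.9, 14.5 and 15.2 CPM in sham. In TAC it was 18.2, 17.3 and 18.1 CPM in the first 3 libraries and 11.1 CPM in TAC4, the lowest of all 8. The groups overlapped (two-sided exact permutation test, p = 0.743). When the count minimum was lowered to a mean of 10 so that this arm could be tested, its log2 fold change was 0.086 (standard error 0.23, edgeR adjusted p = 0.817).

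miR-425-5p, from the hairpin next to miR-191, was even within groups, and its TAC values all lay below its sham values. Its CPM were 97.9, 116.3, 113.1 and 112.3 in sham and 87.3, 94.2, 92.4 and 82.8 in TAC (two-sided exact permutation test, p = 0.0286, the lowest value this design can give). In the fit across all tested miRNAs, the log2 fold change of -0.30 (standard error 0.13) did not pass (edgeR adjusted p = 0.113). The other arm, miR-425-3p, was at 19.4 to 30.8 CPM in sham and 20.6 to 30.1 CPM in TAC, with overlapping groups and a log2 fold change of -0.029 (standard error 0.21, edgeR adjusted p = 0.917).

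The arms of miR-423 were uneven in sham. The CPM of miR-423-5p were 199.6 in Sham1 and 412.2, 417.6 and 398.4 in Sham2 to Sham4. In TAC they were 336.1, 306.2, 242.7 and 338.8, so that all TAC values lay between Sham1 and the other sham libraries. The log2 fold change of miR-423-5p was -0.22 (standard error 0.23, edgeR adjusted p = 0.485), and -0.42 without Sham1 (edgeR adjusted p = 0.0661). miR-423-3p was also lowest in Sham1, at 582.5 CPM against 839.8 to 905.7 CPM in the other sham libraries, and highest in TAC1, at 1049 CPM against 630.6 to 751.1 CPM in the other TAC libraries. Its log2 fold change was -0.051 (standard error 0.20, edgeR adjusted p = 0.864).

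miR-103-3p and miR-107-3p had the lowest fold changes of the candidates, and both were set apart by Sham1. The CPM of miR-103-3p were 1003, 444.5, 610.6 and 478.1 in sham and 385.9, 368.1, 395.7 and 403.1 in TAC. Every TAC library was below every sham library (exact permutation test, p = 0.0286), although the spread was 256 CPM (SD, n = 4) in sham against 15.1 CPM (SD, n = 4) in TAC. The log2 fold change of -0.71 (standard error 0.24) did not pass (edgeR adjusted p = 0.0593), and without Sham1 it was -0.40 (edgeR adjusted p = 0.0695).

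For miR-107-3p, the CPM were 515.1, 183.8, 265.3 and 215.7 in sham and 187.2, 191.1, 173.7 and 163.5 in TAC. Sham2 lay within the TAC range, so the groups overlapped. The log2 fold change was -0.72 (standard error 0.29, edgeR adjusted p = 0.0996) and -0.31 without Sham1 (edgeR adjusted p = 0.166). Without Sham2, in contrast, both passed, with a log2 fold change of -0.84 for miR-103-3p (edgeR adjusted p = 0.0334) and -0.89 for miR-107-3p (edgeR adjusted p = 0.0498).

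miR-186-5p fell in TAC, and it was the only one of the 9 tested candidates past an adjusted p of 0.05 by library total. Among all 223 tested miRNAs, 20.6% were lower at this threshold with no fold change required and 1.35% were higher. The CPM of miR-186-5p were 363.4, 482.7, 334.2 and 411.7 in sham and 242.0, 260.2, 255.3 and 325.1 in TAC, with TAC4 closest to the sham values and no overlap (exact permutation test, p = 0.0286). Its log2 fold change was -0.56 (standard error 0.16, edgeR adjusted p = 0.0372). The adjusted p was above 0.05 without Sham2 (edgeR adjusted p = 0.0850), Sham4, TAC1, TAC2 or TAC3, with no count filter (0.0743), with the replicate number as a block (0.0593), with TMM (0.181) and with DESeq2's own size factors (0.285). DESeq2 with the same scaling gave 0.0171.

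In all, TAC lay below sham without overlap for 3 of the 10 candidates, miR-103-3p, miR-425-5p and miR-186-5p, and in none did it lie above. Over all tested miRNAs the TAC values lay below without overlap in 27.4% and above in 3.59%. All 9 tested candidates had negative log2 fold changes by library total, with a median of -0.22, and the median over the 223 tested miRNAs was -0.29. Under TMM or DESeq2's own size factors, which moved the median of the tested miRNAs to -0.082 and -0.036, the estimates of miR-191-5p, miR-425-3p, miR-423-3p and miR-361-5p were positive.

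**Figure D1:**
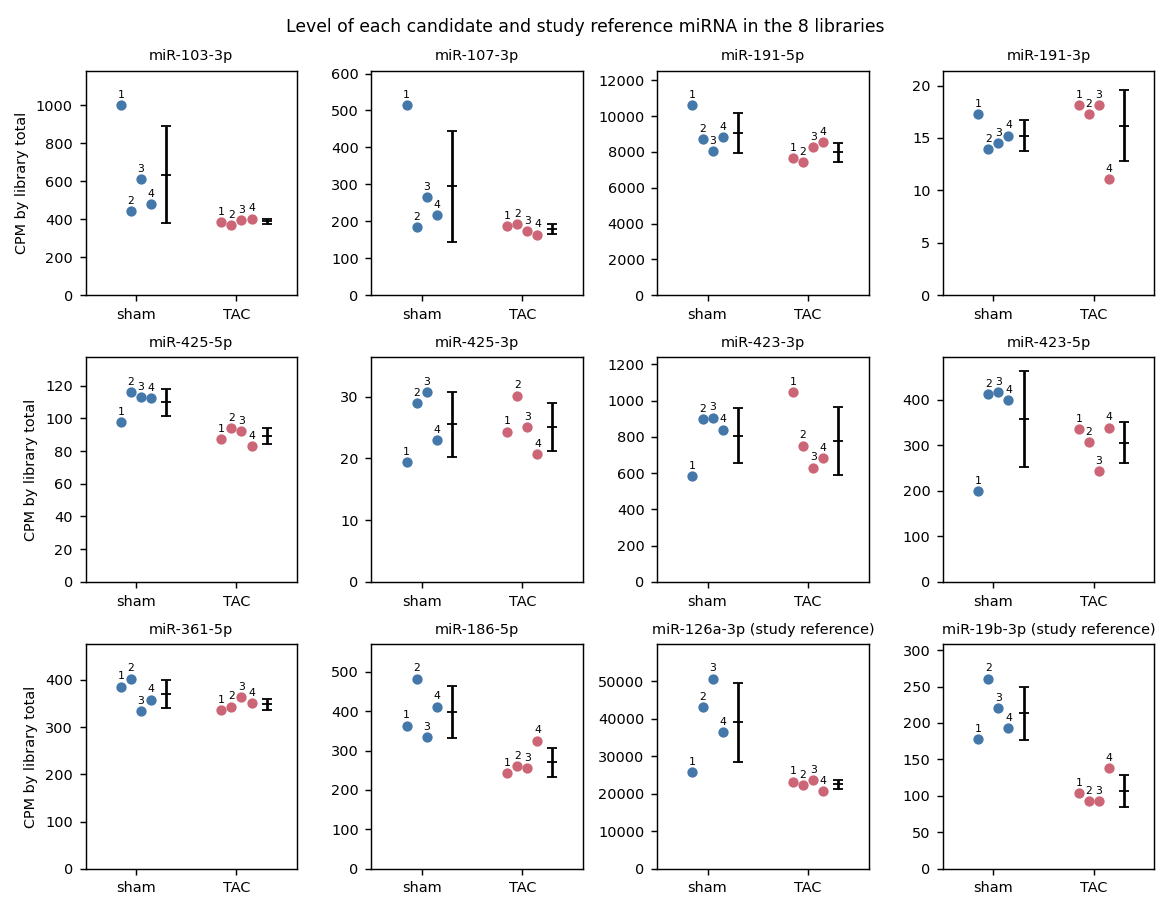
CPM by library total of the 10 candidates and the 2 reference miRNAs of the study in the 4 sham (blue) and 4 TAC (red) libraries, numbered by replicate, with the mean and SD (n = 4) in black and every axis starting at 0. TAC lay below sham without overlap for miR-103-3p, miR-425-5p, miR-186-5p and both study references, and Sham1 gave the highest sham value for miR-103-3p and miR-107-3p and the lowest for miR-423-5p.

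By library total, both study references were lower in TAC and had lower estimates than any tested candidate. miR-126a-3p was at 25759, 43188, 50698 and 36421 CPM in sham and 23249, 22374, 23630 and 20677 CPM in TAC. miR-19b-3p was at 177.6, 260.9, 220.3 and 193.5 CPM in sham and 103.3, 92.6, 92.6 and 137.7 CPM in TAC. Neither overlapped between groups (exact permutation test, p = 0.0286 for each), and their log2 fold changes were -0.80 (edgeR adjusted p = 0.0134) and -1.0 (edgeR adjusted p = 0.00511). The endothelial list summed here is that same hairpin, so it gives no separate value for the share of endothelial RNA beside miR-126a-3p. Counted from the lowest log2 fold change of the 223, miR-19b-3p ranked 15, miR-126a-3p 29, miR-107-3p 34, miR-103-3p 35 and miR-186-5p 53, while miR-425-5p at rank 107 was nearest to the middle. Under TMM the study references were no longer both past the adjusted p threshold, while with DESeq2's own size factors both still were. Neither reference changed sign under these scalings.

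**Figure D2:**
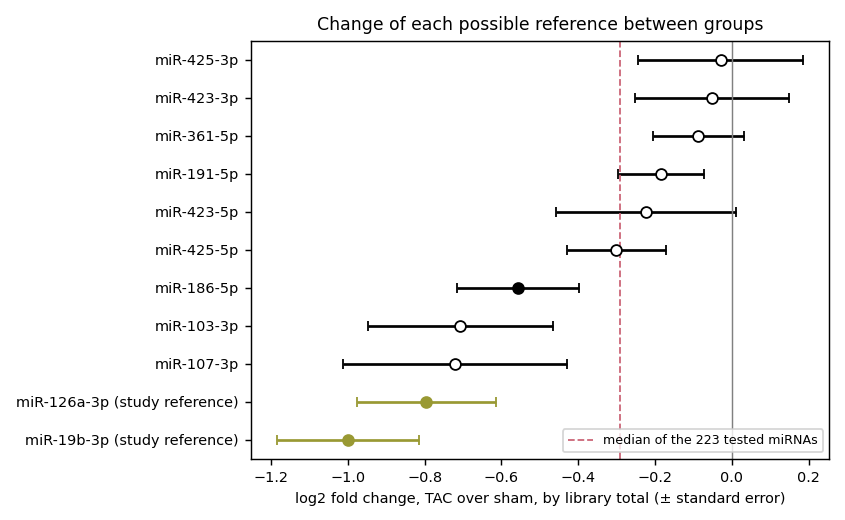
Log2 fold change of TAC over sham by library total (points, with the standard error from edgeR) of the 9 tested candidates (black) and the 2 study references (olive), filled where the adjusted p was below 0.05. The dashed line is the median of the 223 tested miRNAs, -0.29, and among the candidates only miR-186-5p, at -0.56, is filled.

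Within groups, the spread of the candidates ran from narrow to wide without a clear gap. The SD of log2(CPM + 1) between libraries of 1 group, pooled over both groups, was 0.090 for miR-361-5p, 0.098 for miR-425-5p and 0.14 for miR-191-5p, which ranked 7, 9 and 25 of the 223 tested miRNAs from the most even. The median over the 223 was 0.25 and the quartiles were 0.19 and 0.35. miR-186-5p, at 0.21, and miR-425-3p, at 0.26, lay within this range, as did miR-423-3p at 0.31. miR-103-3p, miR-423-5p and miR-107-3p were above it, at 0.38, 0.40 and 0.47.

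The candidates with the widest spread, miR-103-3p, miR-107-3p and miR-423-5p, were wide mainly in sham. The SD of miR-103-3p was 0.53 in sham and 0.057 in TAC, where it ranked 6 of 223, and that of miR-107-3p was 0.65 and 0.10. Without Sham1 the pooled SDs of miR-103-3p, miR-107-3p and miR-423-5p came down to 0.16, 0.19 and 0.17. miR-191-3p had the reverse pattern, with 0.13 in sham and 0.32 in TAC, and its pooled SD of 0.25 came down to 0.10 without TAC4. For comparison, the pooled SD of the study reference miR-126a-3p was 0.30 and that of miR-19b-3p was 0.25.

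**Figure D3:**
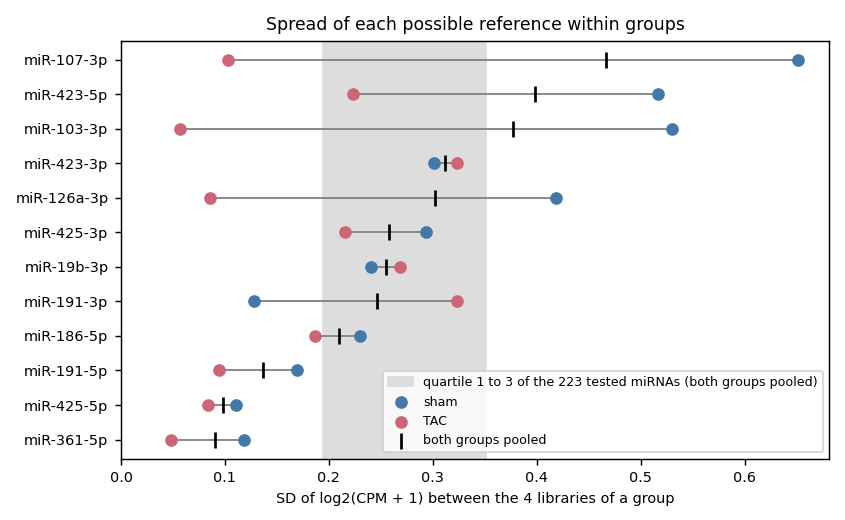
SD of log2(CPM + 1) by library total between the 4 sham libraries (blue) and the 4 TAC libraries (red) of each candidate and study reference, with the SD pooled over both groups as a black tick. The grey band runs from the first to the third quartile of the pooled SDs of the 223 tested miRNAs, 0.19 to 0.35, and miR-361-5p, miR-425-5p and miR-191-5p lie to its left.

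Spread within groups and change between groups can be read together from the SD over all 8 libraries. miR-361-5p had the third lowest of the 223, 0.095, after miR-145a-3p with 0.086 and miR-208a-5p with 0.093, and it was followed by miR-143-3p with 0.098 and miR-125b-5p with 0.10. miR-191-5p ranked 12 with 0.16 and miR-425-5p ranked 22 with 0.18. miR-103-3p ranked 175, miR-107-3p 186, miR-126a-3p 179 and miR-19b-3p 189.

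Ratios between candidates do not depend on the library total and were formed from the counts within each library. Of the 45 pairs of candidates, 2 did not overlap between groups, 4.44%, and over all 24753 pairs of tested miRNAs 21.7% did not. In one of them, the ratio of miR-103-3p to miR-191-5p was lower in TAC by 0.45 on the log2 scale. In the other, the ratio of miR-361-5p to miR-186-5p was higher by 0.47 (exact permutation test, p = 0.0286 for each). Without Sham1 the first difference was -0.28 (exact permutation test, p = 0.0286). With any other single library left out, neither ratio overlapped, but the exact permutation p of the first was 0.143 to 0.171 without a TAC library and that of the second was 0.0571 without a sham library. The groups are then unequal and have fewer arrangements, so these p are not comparable with those from the full set of libraries. Of the 20 pairs of a candidate with a study reference, 9 did not overlap, or 45%. The share over all pairs is not the background for this. Of the 223 tested miRNAs, 53 lay above and 1 below in TAC without overlap in their ratio to miR-126a-3p. In the ratio to miR-19b-3p, 93 lay above and 1 below.

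For 5 ratios the members share a hairpin, a transcript or a seed, and none of these passed the exact permutation test. The ratio of miR-103-3p to miR-107-3p was 1.95, 2.42, 2.30 and 2.22 in sham and 2.06, 1.93, 2.28 and 2.47 in TAC. Sham1, where both were high, was at the low end of this range. The mean log2 ratio differed between groups by -0.027 (exact permutation test, p = 0.80). The ratio of miR-191-5p to miR-425-5p, from neighbouring hairpins, was 108.7 in Sham1 and 71.3 to 78.7 in the other sham libraries, against 78.9 to 103.2 in TAC (difference 0.12 on the log2 scale, exact permutation p = 0.429).

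The arms of 1 hairpin were compared in the same way, and 9.3% of the 43 arm pairs in which both arms were tested did not overlap. miR-425-5p exceeded miR-425-3p 3.68- to 5.03-fold in sham and 3.13- to 4.01-fold in TAC (difference -0.28, exact permutation p = 0.114). miR-423-3p exceeded miR-423-5p 2.92-fold in Sham1, 2.11- to 2.17-fold in the other sham libraries and 2.01- to 3.12-fold in TAC (difference 0.12, exact permutation p = 0.514). miR-191-5p exceeded miR-191-3p 557- to 627-fold in sham, 421- to 456-fold in TAC1 to TAC3 and 772-fold in TAC4 (difference -0.24, exact permutation p = 0.286). Without TAC4, the library that stood apart in this last ratio, the ratio was lower in TAC without overlap, by 0.45 (exact permutation p = 0.0286). That p comes from unequal groups and is not comparable with those from the full set of libraries. The 9.3% is from the full set too.

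Against the pair of study references, taken as the geometric mean of the 2 in each library, 5 of the 10 candidates had all TAC values above all sham values, namely miR-425-5p, miR-425-3p, miR-423-3p, miR-423-5p and miR-361-5p (exact permutation p = 0.0286 for each). Over the 223 tested miRNAs this held for 35.9%. miR-361-5p stood at 18.0%, 11.99%, 10.01% and 13.5% of the reference level in sham and at 21.7%, 23.9%, 24.6% and 20.8% in TAC. miR-103-3p overlapped, at 46.9% in Sham1, 13.2% to 18.3% in the other sham libraries and 23.9% to 26.8% in TAC (exact permutation p = 0.571). For miR-191-5p, miR-191-3p and miR-186-5p the groups overlapped at Sham1 alone, which lay above TAC1 for miR-191-5p and miR-186-5p and above TAC4 for miR-191-3p (exact permutation p = 0.0571 for each).

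To see what each candidate would do as the reference, the effective size of the TAC libraries was multiplied by 1 factor, the TAC-to-sham ratio of the mean CPM of the reference, and the fit was repeated. Every log2 fold change is then shifted by the same amount. The factor was taken as known, so the adjusted p does not include the spread of the reference between libraries. The factor was 0.537 for the study pair, 0.606 for miR-107-3p, 0.612 for miR-103-3p, 0.680 for miR-186-5p, 0.812 for miR-425-5p, 0.857 for miR-423-5p, 0.880 for miR-191-5p, 0.941 for miR-361-5p, 0.965 for miR-423-3p, 0.981 for miR-425-3p and 1.06 for miR-191-3p. The 9 tested candidates together gave 0.802.

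Calls required a fold change over 1.7, the threshold of the study, together with an adjusted p under 0.05. The study pair gave 36.8% of the 223 tested miRNAs as higher and 0.897% as lower, and the library total gave 0.448% and 10.3%. miR-107-3p and miR-103-3p came nearest to the study pair, with 50 miRNAs called higher (22.4%) and 2 lower, and 47 higher (21.1%) and 2 lower. miR-186-5p gave 22 higher (9.87%) and 2 lower.

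As a reference, miR-361-5p gave 1 call higher and 16 lower (7.17%), and miR-191-5p gave 2 higher and 11 lower (4.93%). With miR-425-5p, whose own fold change was close to the median of all tested miRNAs, there were 5 calls higher (2.24%) and 6 lower (2.69%), around a median log2 fold change of 0.0093. The 9 tested candidates together gave the same counts, 5 higher and 6 lower.

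Among the remaining candidates, miR-423-5p gave 3 calls higher and 11 lower around a median log2 fold change of -0.069, and 10 higher and 4 lower around 0.14 without Sham1. There were 1 higher and 18 lower (8.07%) with miR-423-3p, and 1 higher and 21 lower (9.42%) with miR-425-3p. miR-191-3p, with the only factor above 1, gave 1 higher and 32 lower (14.3%). miR-1983 was called higher by library total and, with 1 factor per group, with every candidate and with the study pair. With 1 factor per library, no miRNA was called higher with miR-103-3p, miR-107-3p or miR-423-5p. The 5 called higher with miR-425-5p were miR-1249-3p, miR-1983, miR-1a-3p, miR-27b-5p and miR-28a-5p, named here after their values were seen.

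**Figure D4:**
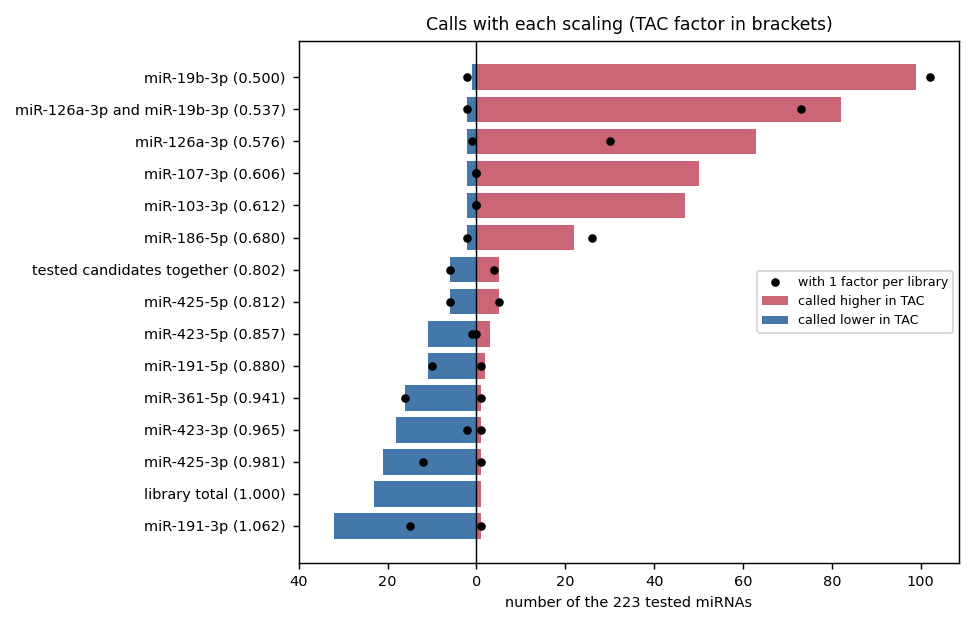
Number of the 223 tested miRNAs called higher (red, to the right) or lower (blue, to the left) in TAC by edgeR (fold change over 1.7, adjusted p under 0.05) with each reference, ordered by the factor applied to the TAC libraries, which is given in brackets. Black points are the counts with 1 factor per library in place of 1 per group, and miR-103-3p, at 47 higher by group factor, has 0 calls there.

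The counts of calls depended on single libraries, most of all those for miR-103-3p and miR-107-3p. Without Sham1, miR-103-3p gave 8 calls higher and 4 lower and miR-107-3p gave 5 and 5. Without Sham2 they gave 76 and 2, and 85 and 2. The total for miR-186-5p, 24, was 8 without TAC1, 12 without Sham2 and 39 without TAC4. Without Sham3 the totals fell from 17 to 7 with miR-361-5p, from 13 to 6 with miR-191-5p and from 11 to 5 with miR-425-5p. When each library was instead divided by its own level of the reference, miR-103-3p and miR-107-3p gave no call in edgeR. At an unadjusted p below 0.05, 44 miRNAs were higher and 3 lower with miR-103-3p, and 22 higher and 3 lower with miR-107-3p. On this scale miR-361-5p gave 1 call higher and 16 lower and miR-425-5p gave 5 higher and 6 lower, as many as with 1 factor.

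Dividing each library by its own reference level also carries the scatter of the reference into every other miRNA. The median within-group SD over the 223 tested miRNAs was 0.255 by library total. It was 0.257 with the 9 candidates together, 0.279 with miR-425-5p, 0.284 with miR-361-5p and 0.301 with miR-191-5p. The study pair gave 0.329, and the values for miR-191-3p, miR-425-3p, miR-186-5p and miR-423-3p were 0.334, 0.361, 0.362 and 0.373. It was widest with miR-103-3p, miR-423-5p and miR-107-3p, at 0.448, 0.469 and 0.526.

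With the study pair as reference, all 9 tested candidates had positive log2 fold changes, 6 passed an adjusted p of 0.05 and 3 were called higher, against 63.7% and 36.8% of all tested miRNAs. The 3 called were miR-425-3p, with a log2 fold change of 0.87 (standard error 0.21, edgeR adjusted p = 0.00616), miR-423-3p with 0.85 (standard error 0.20, edgeR adjusted p = 0.00521) and miR-361-5p with 0.81 (standard error 0.12, edgeR adjusted p = 0.000478). miR-191-5p, at 0.71 (edgeR adjusted p = 0.000694), and miR-425-5p, at 0.60, passed the adjusted p but not the fold change. miR-103-3p and miR-107-3p had the lowest estimates of the 9, at 0.19 (edgeR adjusted p = 0.494) and 0.18 (edgeR adjusted p = 0.606). Without Sham2 both were negative, at -0.030 and -0.078.

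Seen the other way round, both study references had negative log2 fold changes with each of the 10 candidates as reference. With 1 factor this sign follows from their lower estimates by library total and is not a further result. With miR-361-5p, miR-126a-3p had a log2 fold change of -0.71 (edgeR adjusted p = 0.0262) and miR-19b-3p of -0.91 (edgeR adjusted p = 0.0108). With miR-191-5p the values were -0.61 (edgeR adjusted p = 0.0465) and -0.82 (edgeR adjusted p = 0.0185). With miR-425-5p they were -0.49 (edgeR adjusted p = 0.0991) and -0.70 (edgeR adjusted p = 0.0314). Of these, miR-19b-3p with miR-361-5p or miR-191-5p was also past the fold change.

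A set of 8 miRNAs that the study followed or that mark cardiac muscle was used to read what each reference did. Except for miR-208b-3p, the study had reported them as upregulated in these same libraries, scaled to its pair. How many of the 8 were called higher is therefore no independent test of a reference, also where the share of all tested miRNAs is given beside it. miR-1a-3p is the main miRNA of heart muscle. Its CPM were 93974 to 128433 in sham and 121046 to 192386 in TAC, with overlapping groups (exact permutation test, p = 0.0571). Its log2 fold change was 0.54 by library total (edgeR adjusted p = 0.0318), 0.63 with miR-361-5p (0.0228), 0.73 with miR-191-5p (0.0165), 0.84 with miR-425-5p (0.0101) and 1.10 with miR-186-5p (edgeR adjusted p = 0.000976). It reached 1.25 with miR-103-3p and 1.44 with the study pair, and it was called higher from miR-425-5p on. With 1 factor per group, all values of miR-1a-3p were positive and past an adjusted p of 0.05 under each of these references. With 1 factor per library, no miRNA passed that threshold with miR-103-3p.

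let-7f-5p, a member of the let-7 family, was called higher with miR-186-5p (log2 fold change 0.78, edgeR adjusted p = 0.00174), miR-103-3p (0.93), miR-107-3p (0.95) and the study pair (1.12). With miR-361-5p it was at 0.31 (edgeR adjusted p = 0.0993), with miR-191-5p at 0.41 (edgeR adjusted p = 0.0458) and with miR-425-5p at 0.53 (edgeR adjusted p = 0.0177), each below the fold change. miR-24-3p gave nearly the same estimates as let-7f-5p, from 0.22 by library total to 1.12 with the study pair.

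The sign of miR-92a-3p and miR-16-5p depended on the reference. miR-16-5p had a log2 fold change of -0.25 by library total (edgeR adjusted p = 0.129), -0.17 with miR-361-5p, 0.049 with miR-425-5p, 0.46 with miR-103-3p (edgeR adjusted p = 0.0108) and 0.65 with the study pair (edgeR adjusted p = 0.00127). miR-92a-3p, of the same cluster as miR-19b-3p, was at -0.57 by library total (edgeR adjusted p = 0.00979), -0.48 with miR-361-5p (edgeR adjusted p = 0.0258), -0.015 with miR-186-5p and 0.33 with the study pair (edgeR adjusted p = 0.0376). It was thus lower at an adjusted p of 0.05 on one scale and higher on another. With 1 factor per library, no miRNA passed an adjusted p of 0.05 with miR-103-3p, miR-16-5p included.

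miR-208b-3p, the miRNA within the Myh7 gene, and miR-200b-3p, an epithelial miRNA, had the largest estimates of the 8 and the largest errors. miR-208b-3p went from 0.81 by library total (standard error 0.37, edgeR adjusted p = 0.129) to 1.71 with the study pair (edgeR adjusted p = 0.00327). miR-200b-3p went from 0.96 (standard error 0.58, edgeR adjusted p = 0.24) to 1.85 (edgeR adjusted p = 0.0198), and it stood at 137.7 CPM in TAC4 against 18.5 to 30.1 CPM in the other TAC libraries and 19.7 to 32.8 CPM in sham. Without TAC4 the estimates of miR-200b-3p were -0.13 by library total (edgeR adjusted p = 0.71) and 0.82 with the study pair (edgeR adjusted p = 0.0153). miR-486a-5p was called higher with miR-186-5p, miR-103-3p, miR-107-3p and the study pair.

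Of the 8, 6 were called higher with the study pair, miR-103-3p and miR-107-3p, against 36.8%, 21.1% and 22.4% of all tested miRNAs. With miR-186-5p 5 were, against 9.87%, and with miR-425-5p or the 9 candidates together 1 was, against 2.24% for each. With 1 factor per library, miR-103-3p and miR-107-3p gave no call for any tested miRNA, so none of the 8 was called with them. With 1 factor per group but without Sham1, the count was 1 with miR-103-3p and with miR-107-3p. With miR-186-5p it was 1 without TAC1, 2 without Sham2 and 3 without Sham4. With miR-425-5p it was 0 without Sham3 or TAC4 and 2 without Sham2 or TAC2. None of the 8 was called higher in edgeR with miR-361-5p, miR-191-5p, miR-191-3p, miR-423-3p, miR-423-5p or miR-425-3p. With these, 5, 6, 3, 5, 6 and 4 of the 8 had an unadjusted p below 0.05 in either direction. Over all tested miRNAs, 33.6%, 30.0%, 44.4%, 35.9%, 29.6% and 37.7% did. Each count of the 8 included miR-92a-3p as lower, and with miR-191-3p also miR-16-5p as lower. DESeq2 with the same scalings called 1 of the 8 higher with miR-191-5p and with miR-423-5p and 0 with the other 4 of these 6 references.

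**Figure D5:**
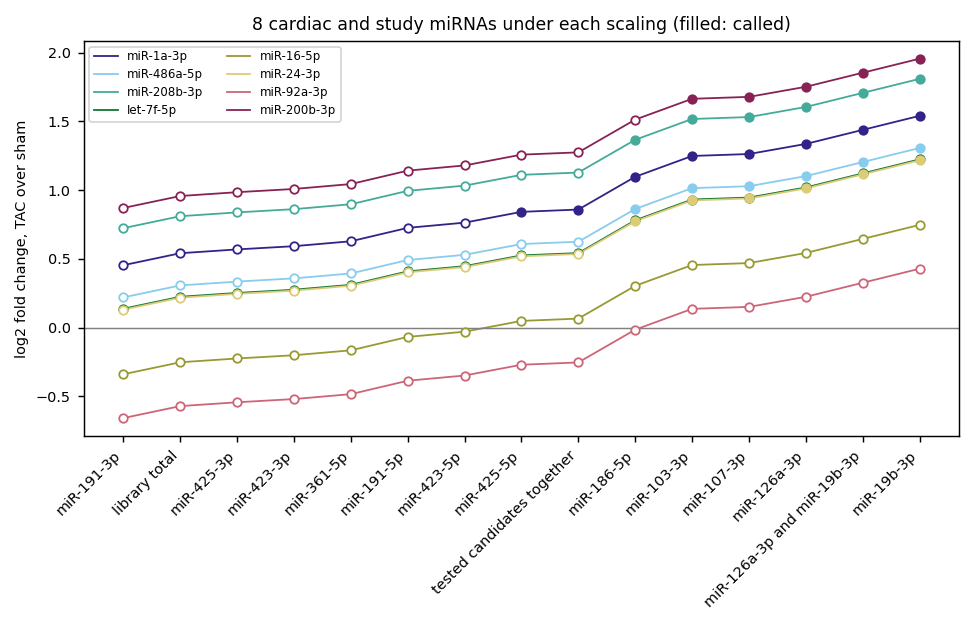
Log2 fold change of TAC over sham of 8 miRNAs (lines) with each reference, ordered from the highest to the lowest factor of the TAC libraries and filled where called by edgeR (fold change over 1.7, adjusted p under 0.05). The lines run parallel because 1 factor shifts all miRNAs alike, and those of miR-16-5p and miR-92a-3p cross 0, from -0.25 and -0.57 by library total to 0.65 and 0.33 with the study pair.

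A list of 12 other miRNAs that are used as normalizers was looked at in the same fits. It includes miR-16-5p and miR-24-3p, which are also among the 8 above. By library total, 8 of the 12 had negative log2 fold changes and 3 passed an adjusted p of 0.05, all lower, against 20.6% of all tested miRNAs: miR-30e-5p at -0.91, miR-93-5p at -0.69 and miR-23a-3p at -0.39. Their median of -0.24 was close to that of the 9 tested candidates. miR-320-3p at 0.034 and miR-484 at -0.11 were closest to 0. With the study pair, 9 of the 12 passed higher and 5 were called higher, against 63.7% and 36.8% of all tested miRNAs, while miR-30e-5p was at -0.016.

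The pattern over the 8 libraries also differed between candidates. As a description over 8 libraries that share 2 group levels and the same totals, the tested miRNA outside the list with the highest Pearson correlation of log2(CPM + 1) was miR-93-5p for miR-103-3p (r = 0.935), miR-133a-5p for miR-107-3p (0.962), miR-20a-5p for miR-191-5p (0.936), miR-32-5p for miR-425-5p (0.963) and miR-19b-3p for miR-186-5p (0.921). The nearest were less alike for miR-423-5p (miR-340-3p, 0.900), miR-423-3p (miR-486a-3p, 0.876), miR-425-3p (miR-146a-5p, 0.750) and miR-361-5p (miR-532-5p, 0.739).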

How the data were processed

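Small RNA of isolated cardiomyocytes from 4 sham and 4 TAC mice was sequenced, 1 library per mouse. The authors cleaned the reads to tags and deposited whole-number counts of tags per mature miRNA, without normalization. The submitters' processing notes name the build mm10 and StringTie 1.3.1, without a role for either. The aligner for small RNA, the miRNA reference and the handling of tags that fit several miRNAs are not given in the sources used here, and a split of such tags can move counts between similar miRNAs. Groups were taken from the sample titles.

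The 10 candidates and all other lists were chosen with earlier results of these data known. CPM are counts scaled to a common miRNA total per library. Fold changes were fitted with edgeR 4.0.16 under R 4.3.3 (the quasi-likelihood F test, with no covariate besides group) over those 223 miRNAs whose mean exceeded 100 counts, with Benjamini-Hochberg adjustment over all of them. At the minimum of 100 counts, counting error was below the biological coefficient of variation of 0.255. Standard errors are log2 fold changes divided by the square root of the F statistic. For a reference, the TAC library sizes were multiplied by the TAC-to-sham ratio of its mean CPM (for several references, the geometric mean of the ratios). With 1 factor per library, a single reference was left out of its own fit. For single values and ratios, exact permutation tests (two-sided) ran over all 70 ways to arrange the 8 libraries. With a library left out they ran over the fewer ways to arrange those that remained, in unequal groups. DESeq2 1.42.0, TMM, other count minimums, no fold change, 1 factor per library, other pseudocounts, the replicate number as a block, the summed counts of miR-103-3p and miR-107-3p as 1 reference, and each library left out were the alternatives. The fits by library total and with 1 factor per group were run on simulated data in which the reference had counting error alone. Those data do not cover references that scatter between libraries as the real ones did. Python 3.11.15, numpy 2.4.6, pandas 2.3.3, scipy 1.17.1 and matplotlib 3.10.9 made the remaining values.

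The miRNAs named were the 10 candidates, the 2 study references, 12 other normalizers and 8 readouts, with miR-16-5p and miR-24-3p in both of the last. Also named were the 5 tested miRNAs with the lowest SD over the 8 libraries and the other arms of candidate hairpins. For each tested candidate, the miRNA outside the list most correlated with it was named too. miR-1983, miR-1249-3p, miR-27b-5p and miR-28a-5p were named from the calls after their values were seen. Leaving out libraries for the candidate pairs that did not overlap, for miR-200b-3p and for the counts of readouts was chosen after seeing the data. The other arms of miR-107 and miR-186 had means of 6.25 and 4.62 counts, and no more is given of them. The 6 lists of marker miRNAs were summed. Besides those in the report, the erythroid list was at 418 to 1503 CPM in sham and 43.8 to 550 CPM in TAC, the fibroblast and smooth muscle list at 41702 to 49646 and 36697 to 43821 CPM, the leukocyte list at 1305 to 2455 and 1051 to 1448 CPM, and the epithelial list at 242 to 401 and 223 to 1406 CPM, all with overlapping groups.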

Additional observations from a re-analysis of the deposited data

Results flagged for a closer look

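In each group of 4 libraries, the highest and the lowest value of the candidates, the study references and the 5 ratios were compared with the others by Dixon's ratio, the gap to the nearest library over the range of the group. Of 34 groups, 4 exceeded the 95% critical value for 4 samples, and chance alone gives about 5% of groups. The CPM of miR-423-5p in Sham1 was 199.6 against 398 to 418 in the other sham libraries (ratio 0.912). The log2 ratio of miR-423-3p to miR-423-5p was highest in Sham1, 1.54 against 1.08 to 1.12 (ratio 0.906), so that both arms were low there but not in proportion. The CPM of miR-191-3p in TAC4 was 11.1 against 17.3 to 18.2 in the other TAC libraries (ratio 0.880), and the log2 ratio of miR-191-5p to miR-191-3p was highest in TAC4, 9.59 against 8.72 to 8.83 (ratio 0.867). These come in pairs because each ratio contains the arm that stood apart.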

How the results depend on the processing

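With the fold change not required, calls were 49 by library total, 144 with the study pair, 102 with miR-103-3p, 104 with miR-107-3p, 36 with miR-191-5p, 72 with miR-191-3p, 35 with miR-425-5p, 40 with miR-425-3p, 36 with miR-423-3p, 34 with miR-423-5p, 34 with miR-361-5p, 62 with miR-186-5p and 36 with the 9 candidates together. By library total, a mean above 10 counts gave 38 calls, TMM gave 3 higher and 10 lower, 13 in all, and DESeq2's own size factors gave 5 higher and 9 lower, 14 in all. No filter gave 129 calls with the study pair and 52 with miR-191-3p, which had 51 with a mean above 10. With 1 factor per library, calls were 0 with miR-103-3p and miR-107-3p, 16 with miR-191-3p, 13 with miR-425-3p, 3 with miR-423-3p and 1 with miR-423-5p. The cause of these changes was not tested.

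Leaving out 1 library at a time, calls ranged from 17 to 27 by library total, from 60 to 107 with the study pair, from 12 (without Sham1) to 78 (without Sham2) with miR-103-3p, from 10 (without Sham1) to 87 (without Sham2) with miR-107-3p, from 6 (without Sham3) to 18 with miR-191-5p, from 22 to 58 (without TAC4) with miR-191-3p, from 5 (without Sham3; 6 without TAC1, 7 without TAC2) to 11 with miR-425-5p, from 10 (without TAC2) to 31 with miR-425-3p, from 9 (without TAC1) to 28 with miR-423-3p, from 7 (without Sham3 or TAC1; 8 without TAC2, 9 without TAC4) to 16 with miR-423-5p, from 7 (without Sham3) to 25 with miR-361-5p, from 8 (without TAC1; 12 without Sham2) to 39 (without TAC4) with miR-186-5p and from 6 (without Sham3 or TAC1) to 11 with the 9 candidates together.

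The number of candidates past an adjusted p of 0.05 by library total was 0 with no filter, TMM and DESeq2's own size factors in their tools (3, 0 and 0 at an unadjusted p below 0.05), 3 with DESeq2 at the same scaling (miR-103-3p, miR-107-3p and miR-186-5p) and 0 to 2 with 1 library left out (0 without Sham4, TAC1, TAC2 or TAC3, with 3, 2, 2 and 2 at an unadjusted p below 0.05, and 2 without Sham2). Signs of log2 fold changes by library total turned for miR-191-5p (0.021 with TMM, 0.069 with DESeq2's own size factors), miR-425-3p (0.19, 0.23), miR-423-3p (0.16, 0.20), miR-361-5p (0.12, 0.17) and miR-423-5p (0.039 with DESeq2's own size factors). With 1 library left out they turned for miR-425-3p (from -0.14 to 0.073) and miR-423-3p (from -0.23 to 0.037), with the study pair for miR-103-3p (from -0.030 to 0.62) and miR-107-3p (from -0.078 to 0.70). The TAC-minus-sham difference of the log2 ratio of miR-191-5p to miR-191-3p ranged from -0.45 to -0.16 with 1 library left out, and that of miR-103-3p to miR-107-3p from -0.088 to 0.031.

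Same-numbered sham and TAC libraries deviated together with r = 0.17, -0.37, 0.31 and -0.22, and 1 of 4 correlated best with its own number, so the numbers were not taken to pair the mice. With the replicate number as a block, calls were 8 with miR-191-5p, 7 with miR-425-5p and 8 with miR-423-5p, and no candidate passed by library total (3 had an unadjusted p below 0.05; miR-186-5p, edgeR adjusted p = 0.0593); the block moved no other count of calls by over 1.5 times.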
